A study of Mus musculus with 9 samples.

Results

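The genes described here are 39 type I interferon-stimulated genes, out of 18303 genes listed in a table of RNA-seq counts from macrophages of mouse skin wounds. They were taken by symbol, and all 39 were found in the table. All 39 held enough counts to be tested, so none was lost to the filter on low counts.

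Type I interferons are secreted when a cell senses foreign or misplaced nucleic acid. They bind the receptor Ifnar1/Ifnar2 on the same or neighbouring cells, the kinases Jak1 and Tyk2 become active, and a transcription factor complex that holds Stat2 and Irf9 enters the nucleus. This complex binds the interferon-stimulated response element (ISRE) in promoters and turns on a set of antiviral, sensing and regulatory genes. Macrophages are known to keep some of these genes on without infection, through low levels of interferon-beta, and to raise them when they take up debris of dead cells.

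The study asked how skin wound macrophages differ between an early and a late phase of repair. Cells were sorted as CD45+CD11b+F4/80+ from the wounds of C57BL/6J wild-type mice given no treatment other than the injury, 4 days after injury in 4 libraries and 14 days after in 5. The labels give neither age nor sex, nor whether each library came from its own animal. The p-values below therefore set the difference between days against the spread between these libraries, which need not be that between animals. Unwounded skin is not analysed here. Library totals ran from 17982633 to 57809918 counts. The counts of day 14 replicate 5 stop within Aplp2 on chromosome 9. For 1608 listed genes, from Aplp2 onward or without a known position, that library was not used. None of the 39 members lies beyond that point, and each has a value in all 9 libraries. The genes of the sort markers were abundant in every library: Emr1 ran from 1045 to 1582 CPM (F4/80), Itgam ran from 1184 to 1984 CPM (CD11b) and Ptprc ran from 1044 to 1618 CPM (CD45). The 6 T and NK cell markers summed to at most 0.871 CPM in any library. Of these, 3 lie beyond the break in day 14 replicate 5. Markers of some other cell types were far higher. The 6 fibroblast markers summed to 9755 to 19390 CPM at day 4 and 5052 to 8415 CPM at day 14. The 5 neutrophil markers reached 1748 CPM at day 4 and 1797 CPM at day 14. The 8 macrophage markers summed to 16970 to 18960 CPM at day 4 and 17320 to 19680 CPM at day 14. CPM is the usual depth-normalized count, scaled with TMM, here relative to the counts of the genes before the break. For genes beyond it, CPM is relative to the whole total of each of the 8 other libraries, so a sum over a marker list with such genes mixes both scales (T and NK cells, and both kinds of dendritic cell).

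The ISRE was looked for in 300 bases around the annotated starts of transcripts (250 before and 50 after) as its core GAAANNGAAA, on either strand, in RefSeq promoters of GRCm38.p6. A gene can have several such starts, and some lie inside the gene's full span. Of the 39 members, 28 had such a window, and 14 of these (50%) held the core, against 3.99% of all 27025 genes with a window. The GAS element TTCNNNGAA, which reads the same on both strands and is best known from interferon-gamma responses, was in 7 of the 28 (25%), against 9.55% of all genes. In 11 members the core lay before the start of its window's transcript, with its nearest copy beginning 14 to 222 bases upstream (median 75). In 8 of these it also lay wholly before the outermost start of the gene (all but Ifit3, Oas1a and Ifi203). The 120 bases before that transcript start are shown for Oas3, Oas1a and Isg15, members with large drops or a large spread at day 14. The last 25 bases of the Oas3 stretch and the last 19 of the Oas1a stretch lie within the gene's outermost span. Each is read 5′ to 3′ along the gene's strand, with the core in capitals (overlapping cores run together).
Oas3, chr5:120777660-120777779, minus strand: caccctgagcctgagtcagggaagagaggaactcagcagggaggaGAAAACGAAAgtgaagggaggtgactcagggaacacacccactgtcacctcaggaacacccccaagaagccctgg
Oas1a, chr5:120907526-120907645, minus strand: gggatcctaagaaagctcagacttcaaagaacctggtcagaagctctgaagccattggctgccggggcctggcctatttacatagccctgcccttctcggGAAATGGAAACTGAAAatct
Isg15, chr4:156200819-156200938, minus strand: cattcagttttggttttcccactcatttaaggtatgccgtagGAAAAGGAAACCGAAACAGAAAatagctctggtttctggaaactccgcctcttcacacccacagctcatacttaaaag
Oas3 held 1 core here, Oas1a held 2 overlapping cores ending near the start, and Isg15 held 3 in a single run. Of the 2 windows of Ifi203, the one 374 bases inside the gene's outermost start held a core and the one 194 bases inside held none. The cores of Ifitm3 lay just after the start, at bases 3 and 20 of the transcript. In the windows of Oasl1 and Oasl2 these letters were not found.

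**Figure D1:**
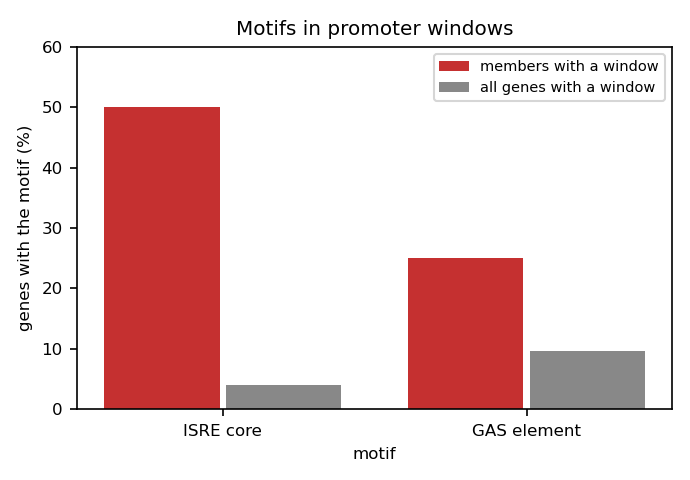
Share of genes (vertical axis, percent) whose 300-base promoter window holds the ISRE core or the GAS element, for the 28 members with a window (red) and all 27025 genes with one (grey). The ISRE core was in 50% of these members and 3.99% of all genes.

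The core occurred among members of each direction. It was present in 7 of the 14 members with a window that fell between the days, in 1 of the 4 that rose and in 6 of the 10 that did not pass the test described next. Over all 381 tested genes with the core, 69 were higher at day 14 and 61 lower. Over all 9960 tested genes with a window, 1574 were higher and 1487 lower. A match describes the letters of a window and does not show that a factor binds there.

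Between day 4 and day 14, 21 of the 39 members fell, 4 rose and 14 did not pass (edgeR's quasi-likelihood test, Benjamini-Hochberg adjusted p under 0.05 over 13344 genes). Among all genes tested, 15.0% were lower and 16.1% higher by the same test, and 31.0% differed in either direction. The median log2 fold change (day 14 over day 4) of the members was -0.39, with a range of -1.39 to 0.59, against 0.01 over all genes. Of the members, 34 had a value below 0, and 48.7% of all genes did. In 19 members every day 14 library lay below every day 4 library, and in 3 every one lay above, where 12.8% and 13.0% of all tested genes showed these patterns. Summed over the 39 genes, the level ran from 5615 to 6513 CPM at day 4 and from 4529 to 5317 CPM at day 14, without overlap. Of the members, 5 (Oas3, Lgals3bp, Zbp1, Dhx58 and Oasl2) were at least 2-fold lower, and none was 2-fold higher. In sorted bulk RNA, fewer cells that express a gene and less of its RNA per cell cannot be told apart.

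**Figure D2:**
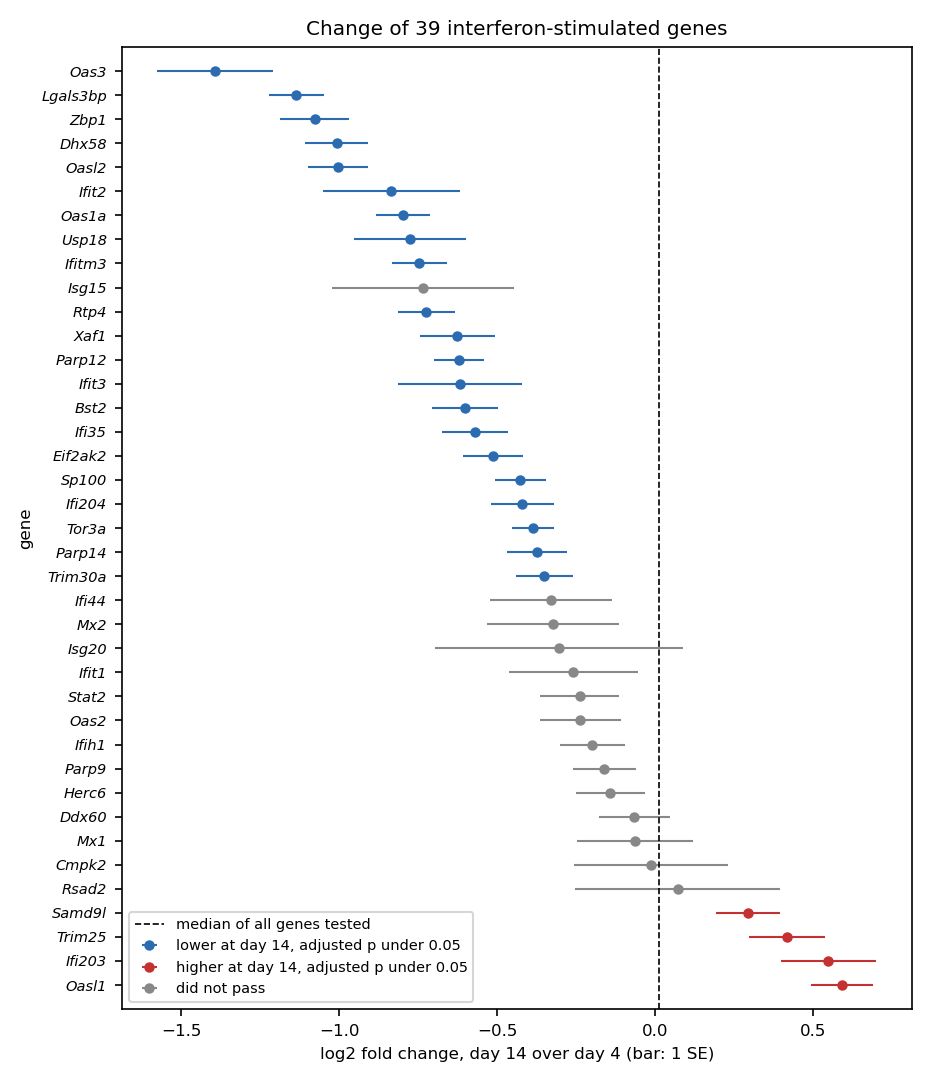
Log2 fold change of each member, day 14 over day 4 (horizontal axis), with bars of 1 SE; blue points fell, red points rose and grey points did not pass an adjusted p of 0.05. The dashed line is the median of all genes tested (0.01), and 34 of the 39 points lie below 0.

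The effectors that bind viral RNA or answer it with a second messenger had the lowest median log2 fold change of the 5 role groups, -0.71, with 7 of 10 lower, 1 higher and 2 that did not pass. The Oas enzymes make the messenger 2-5A when they bind double-stranded RNA. Oas3 was at 104, 83.4, 107 and 89.0 CPM at day 4 and at 27.9, 29.8, 54.4, 29.7 and 41.0 CPM at day 14. The day 14 libraries lay below all of day 4, with replicate 3 the highest of them. Oas3 was 2.62-fold lower (log2 fold change -1.39 ± 0.18, SE, adjusted p = 0.000192), the largest change among the members. The libraries held 137, 120.3, 135 and 124 CPM of Oas1a at day 4 and 68.5, 74.1, 85.5, 74.8 and 68.1 CPM at day 14. The groups did not overlap, and Oas1a was 1.74-fold lower (log2 fold change -0.80 ± 0.09, SE, adjusted p = 3.66e-05). Oas2 lies beside them on chromosome 5 (Oas2 at 120730333 to 120749886, Oas3 at 120753098 to 120777684 and Oas1a at 120896256 to 120907544, GRCm38). For Oas2, the values were 150, 157, 237 and 205 CPM at day 4 and 163, 156, 174, 148 and 155 CPM at day 14. These values overlapped, with replicates 3 and 4 of day 4 above all others, and the difference did not pass (log2 fold change -0.24 ± 0.13, SE, adjusted p = 0.178).

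The OAS-like pair Oasl1 and Oasl2 moved in opposite directions. Oasl2 keeps the enzyme activity and Oasl1 has lost it; Oasl1 is known in the mouse as a brake on translation of Irf7. Values of Oasl2 were 212, 212, 257 and 199 CPM at day 4 and 110, 108, 124, 104 and 102 CPM at day 14. Every day 14 value lay below every day 4 value, a 2.01-fold drop (log2 fold change -1.004 ± 0.09, SE, adjusted p = 1.44e-05). Oasl1 was at 49.6, 36.6, 45.4 and 42.5 CPM at day 4 and at 70.4, 69.9, 62.2, 58.1 and 67.2 CPM at day 14. Here the order was reversed without overlap, a 1.51-fold rise (log2 fold change 0.59 ± 0.10, SE, adjusted p = 0.000844). The genes sit 10.9 kb apart on chromosome 5 (Oasl2 at 114896926 to 114912245, Oasl1 at 114923143 to 114937911). Within each library, the log2 ratio of Oasl1 to Oasl2 counts went from -2.34 ± 0.21 (SD, n = 4) to -0.74 ± 0.17 (SD, n = 5), with no overlap; a ratio within a library does not depend on how libraries are scaled.

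Of the Ifit proteins, Ifit1 grips the ends of foreign RNA. The libraries held 92.6, 109, 141 and 98.8 CPM of Ifit2 at day 4 and 66.7, 49.6, 97.9, 44.2 and 50.9 CPM at day 14. For Ifit3, the values were 68.3, 73.3, 92.3 and 67.5 CPM at day 4 and 56.0, 41.6, 73.7, 36.2 and 37.8 CPM at day 14. Both fell, Ifit2 1.78-fold (log2 fold change -0.83 ± 0.22, SE, adjusted p = 0.0134) and Ifit3 1.53-fold (log2 fold change -0.62 ± 0.20, SE, adjusted p = 0.0333), although day 14 replicate 3 reached into the day 4 range in each. Values of Ifit1 were 34.2, 39.7, 47.5 and 32.2 CPM at day 4 and 32.7, 25.0, 50.6, 24.9 and 27.1 CPM at day 14. Ifit1 overlapped between the days and did not pass (log2 fold change -0.26 ± 0.20, SE, adjusted p = 0.354). The call of Ifit2 was lost with library size as a covariate (adjusted p = 0.0513) and in the 6 shallowest libraries (0.172). The call of Ifit3 was lost in 9 of 20 alternatives, among them without day 4 replicate 2 or 3 or day 14 replicate 2, 4 or 5 (adjusted p = 0.0542 to 0.103), and Ifit1 fell without day 14 replicate 3 (adjusted p = 0.0158). Day 14 replicate 3 was the highest of its day for all 3, yet the log2 ratio of Ifit2 to Ifit1 stayed in a narrow band within a day, from 1.44 to 1.62 at day 4 and from 0.83 to 1.03 at day 14. Ifit3 has a near-identical copy, Ifit3b, which is not analysed here and could share its reads.

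Zbp1, a sensor of Z-form nucleic acid that can start necroptosis, and Eif2ak2, the kinase PKR that halts translation on double-stranded RNA, complete this group. Zbp1 was at 73.8, 67.0, 86.1 and 76.3 CPM at day 4 and at 32.5, 36.3, 44.7, 33.4 and 32.8 CPM at day 14. The groups were apart, with a 2.11-fold drop (log2 fold change -1.08 ± 0.11, SE, adjusted p = 2.55e-05). The libraries held 99.4, 119, 106 and 93.1 CPM of Eif2ak2 at day 4 and 78.4, 75.1, 73.6, 76.9 and 61.1 CPM at day 14. Eif2ak2 was also apart, with the lowest value in day 14 replicate 5, and fell 1.43-fold (log2 fold change -0.51 ± 0.10, SE, adjusted p = 0.00171).

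**Figure D3:**
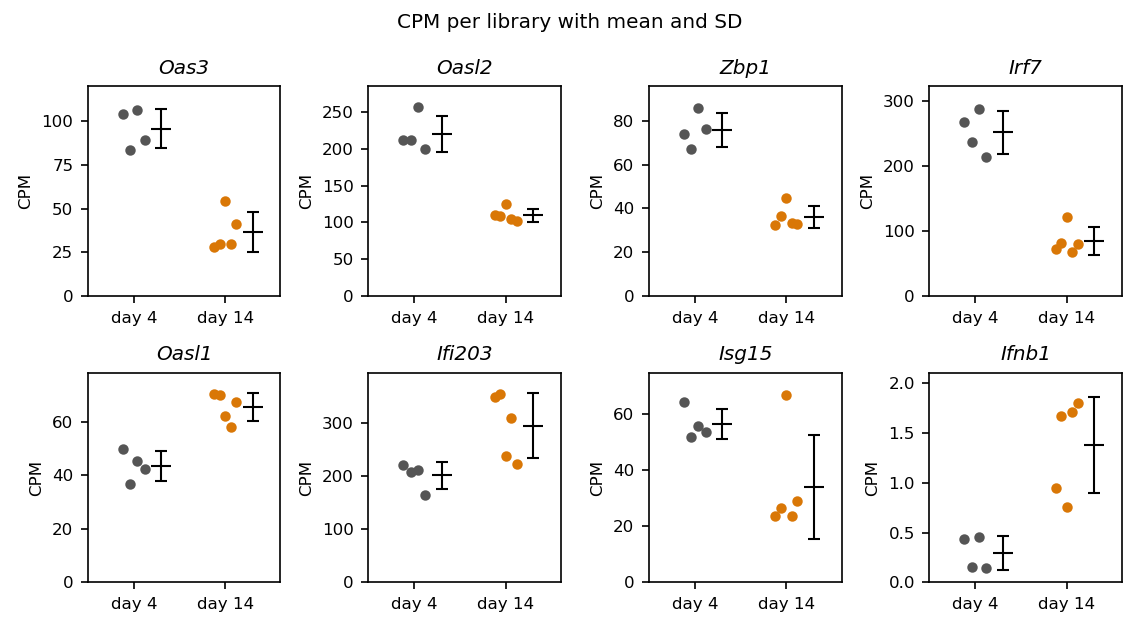
CPM per library (vertical axes, each from 0) at day 4 (grey, n = 4) and day 14 (orange, n = 5) for 6 members and for Irf7 and Ifnb1; the black bars are the mean and SD. Oas3, Oasl2, Zbp1 and Irf7 are lower at day 14 and Oasl1, Ifi203 and Ifnb1 higher, without overlap, and 1 day 14 library of Isg15 lies above all of day 4.

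Among effectors that act on membranes, capsids or nucleotides, 3 of 10 fell, 1 rose and 6 did not pass, with a median log2 fold change of -0.31. Ifitm3, which blocks the fusion of viral with endosomal membranes, was the most abundant member per length, at 789.9 CPM per kb of exon at day 4 and 471 at day 14. For Ifitm3, the values were 533, 486, 595 and 529 CPM at day 4 and 331, 313, 331, 337 and 285 CPM at day 14. The groups did not overlap, and Ifitm3 fell 1.68-fold (log2 fold change -0.75 ± 0.09, SE, adjusted p = 7.24e-05). Values of Bst2 were 119, 115, 138 and 142 CPM at day 4 and 71.5, 76.8, 96.0, 89.7 and 89.7 CPM at day 14. Bst2, or tetherin, holds budding virions at the cell surface; it fell 1.52-fold without overlap (adjusted p = 0.00107). Rtp4 was at 81.2, 81.7, 99.4 and 79.6 CPM at day 4 and at 50.6, 51.2, 53.5, 57.3 and 46.2 CPM at day 14. Rtp4, a chaperone of membrane receptors, fell 1.65-fold, again without overlap (adjusted p = 0.000113).

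Samd9l, a repressor of translation, went the other way. The libraries held 190.5, 193, 196 and 151 CPM of Samd9l at day 4 and 224, 255, 220, 223 and 199 CPM at day 14. Day 14 lay above day 4 throughout, with the smallest gap between day 4 replicate 3 and day 14 replicate 5, a 1.23-fold rise (log2 fold change 0.29 ± 0.10, SE, adjusted p = 0.0438). This call was lost in 10 of 20 alternative analyses, among them those without day 4 replicate 1, 3 or 4 or without day 14 replicate 1, 2 or 4 (adjusted p = 0.0553 to 0.158). The other 6 of the group were Rsad2 (viperin, which makes a chain-terminating nucleotide), its neighbour Cmpk2 (a nucleotide kinase), Isg20 (an exonuclease), Mx1, Mx2 (dynamin-like GTPases) and Ifi44. For Rsad2, the values were 188, 166, 146 and 115 CPM at day 4 and 128, 109.8, 324, 109 and 137 CPM at day 14. Day 14 replicate 3 was higher than any other library and the remaining 4 overlapped day 4 (log2 fold change 0.07 ± 0.33, SE, adjusted p = 0.889). Rsad2 and Cmpk2 lie 12.7 kb apart on chromosome 12 (26442743 to 26456452 and 26469117 to 26479837), and their log2 ratio was 2.40 ± 0.30 (SD, n = 4) at day 4 and 2.44 ± 0.21 (SD, n = 5) at day 14. Cmpk2, Ifi44, Isg20, Mx1 and Mx2 had log2 fold changes from -0.33 to -0.01, with overlap in each. Isg20 fell without day 14 replicate 3 (log2 fold change -0.83, adjusted p = 0.0118) and Ifi44 without day 4 replicate 4 (-0.51, adjusted p = 0.0404). RefSeq annotates Mx1 and Mx2 as transcribed pseudogenes in this assembly, which is of the C57BL/6J strain.

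Of the 5 sensors of nucleic acid, 2 fell, 1 rose and 2 did not pass. Dhx58 (LGP2), which regulates the RNA sensors RIG-I and MDA5, showed the tightest day 14 values of the group. Values of Dhx58 were 55.7, 47.3, 66.3 and 57.8 CPM at day 4 and 29.6, 27.2, 30.5, 25.7 and 28.2 CPM at day 14. It fell 2.01-fold without overlap (log2 fold change -1.01 ± 0.10, SE, adjusted p = 2.18e-05). Ifi203 and Ifi204, of the PYHIN family of DNA-binding proteins, changed in opposite directions. They lie 153.3 kb apart on chromosome 1 (173920400 to 173942866 and 173747293 to 173767069). Ifi204 was at 365, 402, 368 and 319 CPM at day 4 and at 289, 286, 255, 297 and 230.1 CPM at day 14. The libraries held 222, 209, 212 and 165 CPM of Ifi203 at day 4 and 349.9, 355, 238, 311 and 224 CPM at day 14. Ifi204 fell 1.34-fold (log2 fold change -0.42 ± 0.10, SE, adjusted p = 0.00773) and Ifi203 rose 1.46-fold (log2 fold change 0.55 ± 0.15, SE, adjusted p = 0.0162), each without overlap. For Ifi203 the margin was thin: the lowest day 14 library, replicate 5, was barely above the highest of day 4, and without day 4 replicate 4 the adjusted p was 0.053. In log2, the ratio of Ifi203 to Ifi204 went from -0.85 ± 0.11 (SD, n = 4) to 0.10 ± 0.18 (SD, n = 5). The family's genes are similar in sequence and the way reads were split between them is not given in the sources used here, so each value is uncertain to that extent. Ifih1 (MDA5) and Ddx60, helicases that sense or help to sense RNA, had log2 fold changes of -0.20 and -0.07 and did not pass.

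The group of signalling, ISG15 and feedback genes held 2 that fell, 1 that rose and 3 that did not pass. Usp18 takes the ubiquitin-like protein Isg15 off its targets and blocks signalling at Ifnar2. For Usp18, the values were 31.4, 28.4, 39.4 and 29.97 CPM at day 4 and 20.2, 15.7, 27.8, 14.5 and 15.9 CPM at day 14. It fell 1.71-fold without overlap (log2 fold change -0.78 ± 0.18, SE, adjusted p = 0.00632). Values of Ifi35 were 38.7, 32.7, 40.5 and 40.9 CPM at day 4 and 22.8, 25.0, 30.9, 25.1 and 25.1 CPM at day 14. Ifi35, a partner of Nmi, fell 1.48-fold, also without overlap (adjusted p = 0.00156). Isg15 was at 64.3, 52.0, 55.9 and 53.6 CPM at day 4 and at 23.8, 26.5, 66.7, 23.8 and 29.0 CPM at day 14. For Isg15 itself, 4 day 14 libraries lay below all of day 4, and replicate 3 lay above all of day 4. The difference did not pass (log2 fold change -0.73 ± 0.29, SE, adjusted p = 0.0757). Without day 14 replicate 3 it was -1.14 ± 0.10 (SE), with an adjusted p of 1.23e-05.

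Trim25, a ubiquitin ligase known to act with RIG-I and itself a target of Isg15, was the member with the most counts. The libraries held 985, 947, 823 and 781 CPM of Trim25 at day 4 and 1377, 1103, 958, 1329 and 1141 CPM at day 14. It rose 1.34-fold (log2 fold change 0.42 ± 0.12, SE, adjusted p = 0.0208), although day 14 replicate 3 lay between values of day 4. Stat2 and Herc6, the ISG15 ligase of the mouse, had log2 fold changes of -0.24 and -0.14 and did not pass. The call of Trim25 was lost without day 4 replicate 3 or 4 or day 14 replicate 1 (adjusted p = 0.0562 to 0.0644).

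The last group, of PARPs, nuclear body proteins and others, was the most uniform, with 7 of 8 lower, none higher and a median log2 fold change of -0.41. Lgals3bp, a secreted glycoprotein that binds galectins, led it. For Lgals3bp, the values were 567, 491, 599 and 555 CPM at day 4 and 227, 247, 266, 250.1 and 268 CPM at day 14. The days were far apart relative to the spread within them, a 2.20-fold drop with the smallest p of all members (log2 fold change -1.14 ± 0.09, SE, adjusted p = 3.13e-06). Values of Parp12 were 109, 111, 127 and 109.5 CPM at day 4 and 76.9, 78.5, 74.4, 74.5 and 66.9 CPM at day 14. Parp12, an ADP-ribosyltransferase that restricts viruses, fell 1.54-fold (adjusted p = 0.000118). Parp14 was at 396, 422, 479.6 and 400.2 CPM at day 4 and at 366, 325, 335, 329 and 280.3 CPM at day 14. Parp14, its relative known from interferon and IL-4 responses, fell 1.30-fold (adjusted p = 0.0116), while its neighbour Parp9 had a log2 fold change of -0.16 and did not pass.

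Xaf1, which antagonises the apoptosis inhibitor XIAP, fell 1.54-fold. The libraries held 24.2, 24.2, 30.8 and 26.2 CPM of Xaf1 at day 4 and 18.1, 18.4, 19.7, 14.8 and 14.4 CPM at day 14. For Sp100, the values were 156, 159, 169.5 and 146 CPM at day 4 and 125, 123, 115, 119 and 104 CPM at day 14. In each gene the highest day 14 library lay below the lowest of day 4. Values of Tor3a were 75.5, 75.0, 83.5 and 80.9 CPM at day 4 and 60.2, 58.0, 61.8, 59.5 and 61.9 CPM at day 14. Trim30a was at 306, 312, 325 and 269 CPM at day 4 and at 255, 239.8, 244, 245 and 205 CPM at day 14. Sp100, a nuclear body protein, Tor3a, a torsin-family ATPase, and Trim30a, a TRIM protein known to restrain Toll-like receptor signalling, fell 1.34-fold, 1.31-fold and 1.27-fold. In these 3 and in Xaf1, Lgals3bp, Parp12 and Parp14 no day 14 library reached the day 4 range. Adjusted p-values were 0.00191 for Xaf1, 0.00183 for Sp100, 0.00115 for Tor3a and 0.0116 for Trim30a.

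**Figure D4:**
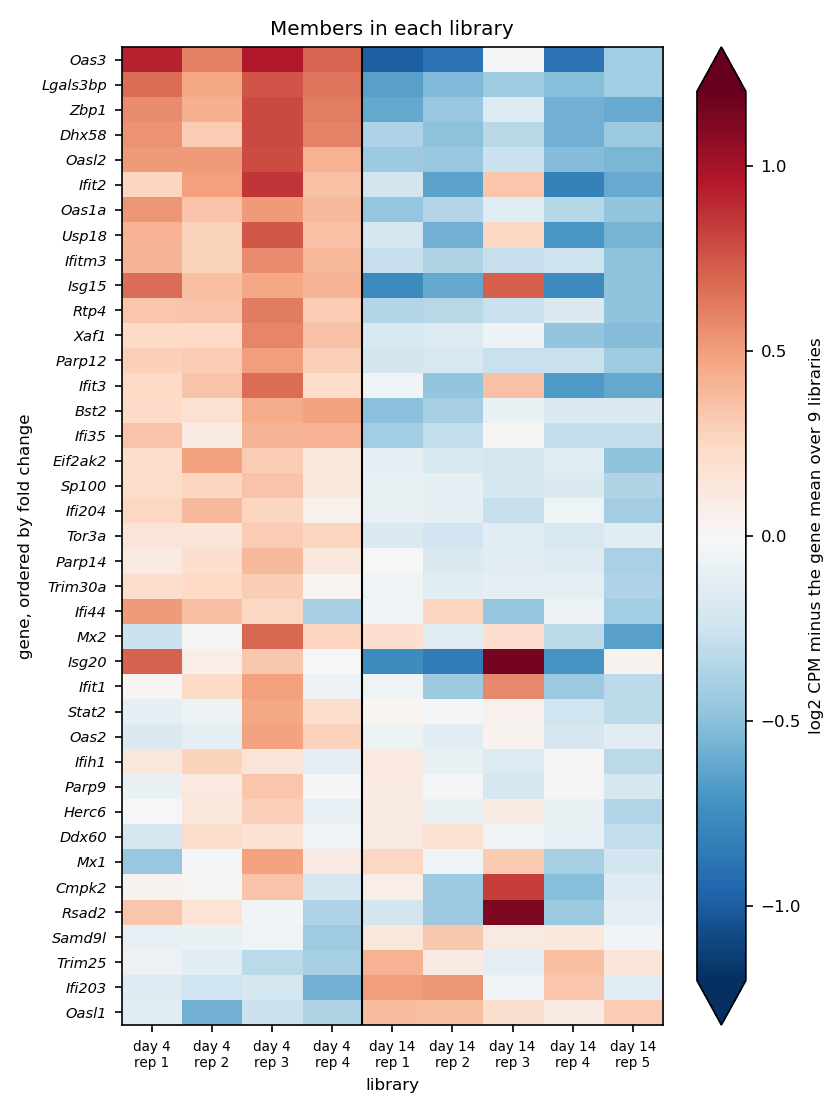
Level of each member in each library as log2 CPM minus the gene's mean over the 9 libraries (colour scale, red higher and blue lower), with genes ordered by fold change; the line separates day 4 from day 14. Day 14 replicate 3 stands out in red for Rsad2, Isg20, Cmpk2, Isg15 and Ifit1, and stays blue for Oasl2, Zbp1, Dhx58 and Lgals3bp.

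Within a day, the members did not all shift by the same amount between libraries. Day 14 replicate 3 held the highest day 14 value for 19 of the 39 members, and day 14 replicate 5 the lowest for 19. On average over members, replicate 3 lay 0.24 log2 above the mean of its day, with an SD between members of 0.40, the widest of any library. These 19 were Rsad2, Cmpk2, Isg20, Isg15, Ifit1, Ifit2, Ifit3, Usp18, Oas1a, Oas2, Oas3, Oasl2, Zbp1, Dhx58, Ifi35, Bst2, Xaf1, Mx1 and Stat2. Over the 5 day 14 libraries the coefficient of variation was 70.3% for Isg20, 56.6% for Rsad2, 54.3% for Isg15 and 42.3% for Cmpk2, against 6.58% for Lgals3bp, 6.65% for Ifitm3 and 2.68% for Tor3a. At day 4, replicate 3 held the highest value for 25 of the 39. Over all 39 members it lay a mean of 0.17 log2 above the mean of its day, with an SD of 0.14. In that library 36 of the 39 members were above their day 4 mean. In day 14 replicate 5, 7 of the 39 were above their day 14 mean. As medians, the members lay 0.154 log2 from the mean of their day in day 4 replicate 3. They lay 0.134 from it in day 14 replicate 3 and -0.161 in day 14 replicate 5. Over all tested genes with a value in each library of the day, these medians were -0.003, 0.012 and -0.004.

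In day 14 replicate 3, 4 of 5 neutrophil markers (S100a8, S100a9, Cxcr2 and Csf3r) were also the highest of their day. The libraries held 972, 283, 323 and 348 CPM of S100a9 at day 4 and 126, 73.1, 882, 119 and 390.5 CPM at day 14. For Cxcr2, the values were 97.5, 46.1, 44.7 and 44.4 CPM at day 4 and 28.7, 13.3, 159, 35.5 and 84.6 CPM at day 14. S100a9 is a calcium-binding protein abundant in neutrophils and Cxcr2 their chemokine receptor; each was high in day 4 replicate 1 and day 14 replicate 3. In day 14 replicate 3 the 3 endothelial markers and the monocyte marker Ly6c2 were the highest of their day as well, with Kdr at 17.1 CPM against 2.14 to 6.21 in the other libraries of day 14, Cdh5 at 16.1 against 7.07 to 11.5, Pecam1 at 28.2 against 15.4 to 20.7 and Ly6c2 at 23.4 against 5.14 to 8.40. In day 4 replicate 1, Rsad2, Isg15 and Isg20 were the highest of their day and Ifit2 the lowest. Over the 5 neutrophil markers listed, the sum ran from 627.6 to 1748 CPM at day 4 and from 254.5 to 1797 CPM at day 14, and 0 of 5 changed between the days (adjusted p = 0.547 or more by edgeR's quasi-likelihood test; 0 had an unadjusted p under 0.05). Slfn4, a further interferon-inducible gene, followed the same libraries: 728, 398, 402 and 335 CPM at day 4 and 95.1, 112, 882, 106 and 296 CPM at day 14. The part of these cell types in the values of Rsad2, Isg15 and the Ifit genes was not tested. Without day 14 replicate 3, 24 members fell and 4 rose, with Isg15, Isg20 and Ifit1 added.

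**Figure D5:**
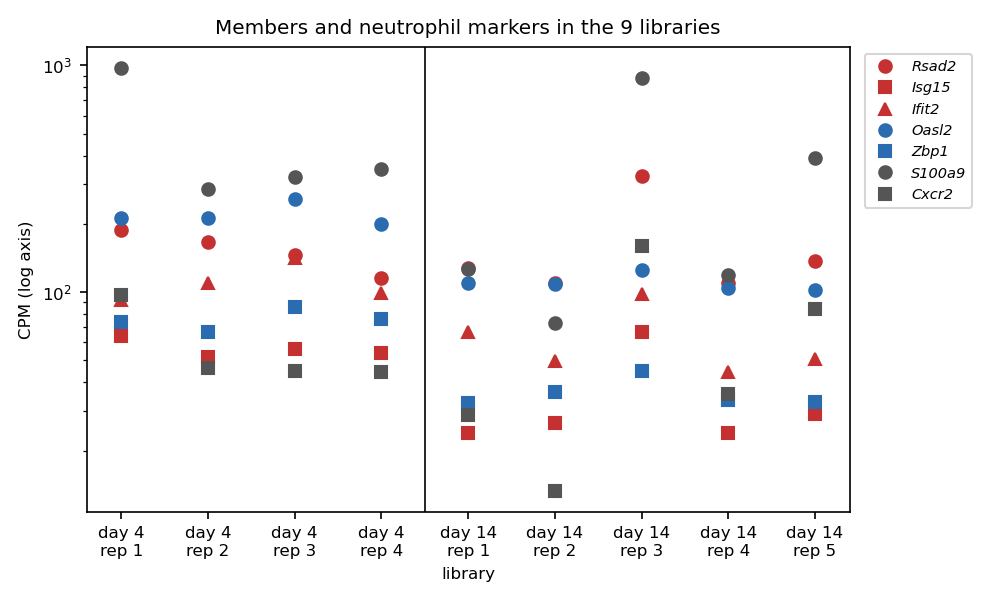
CPM per library (vertical log axis) in the 4 day 4 and 5 day 14 libraries for Rsad2, Isg15 and Ifit2 (red), Oasl2 and Zbp1 (blue) and the neutrophil markers S100a9 and Cxcr2 (grey). Each gene shown is at its highest of day 14 in replicate 3. There Oasl2 (124.5 CPM) and Zbp1 (44.7 CPM) stay below their day 4 values, and Ifit2 (97.9 CPM) lies within its own.

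The rest of the pathway was read from a list of 90 further genes, of which 79 were in the table and 72 tested: 8 were higher, 28 lower and 36 did not pass, where 16.1% and 15.0% of all genes were higher and lower. Of 17 type I interferon genes, 7 were in the table (the other 10 are not analysed here) and only Ifnb1, which encodes interferon-beta, held enough counts to be tested. Values of Ifnb1 were 0.433, 0.158, 0.460 and 0.144 CPM at day 4 and 0.949, 1.67, 0.759, 1.71 and 1.797 CPM at day 14. It was higher at day 14 without overlap, 4.56-fold (log2 fold change 2.19 ± 0.44, SE, adjusted p = 0.00297), and this rests on 4 to 43 counts per library. Its direction is opposite to that of most members. The interferon-alpha genes in the table had 0 counts in most libraries, and at most 0.0787 CPM in any.

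The receptor genes did not pass. Ifnar1, Ifnar2, Ifngr1 and Ifngr2 had log2 fold changes from -0.27 to -0.14, with Ifnar1 the most abundant, at a mean of 352 CPM at day 4 and 316 CPM at day 14 (adjusted p = 0.189). Of the kinases and transcription factors, Jak1 (0.28, adjusted p = 0.0252) and Jak2 (0.76, adjusted p = 0.00449) rose, while Irf9 (-0.34, adjusted p = 0.00578) and Irf7 (-1.57, adjusted p = 2.38e-05) fell; Tyk2 and Irf3 did not pass. The call of Jak1 was lost without day 4 replicate 3 or 4 or day 14 replicate 1 (adjusted p = 0.0691 to 0.0818). Irf7 was at 268, 238, 288 and 215 CPM at day 4 and at 72.8, 81.0, 121, 67.8 and 80.4 CPM at day 14. Irf7 amplifies the interferon response, is itself interferon-induced, and fell 2.98-fold without overlap (log2 fold change -1.57 ± 0.16, SE, adjusted p = 2.38e-05), further than any of the 39 members.

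Of 11 further sensors and adaptors, Ddx58 (RIG-I), Ikbke, a kinase that activates Irf3 and Irf7, and the adaptor Myd88 fell, Tlr7 rose and 7 did not pass. Their log2 fold changes were -0.60, -0.56, -0.34 and 0.59, those of Myd88 and Tlr7 from 8 libraries, without day 14 replicate 5. The call of Myd88 was lost without any of 6 other libraries (adjusted p = 0.0913 to 0.134); day 4 replicate 2 and day 14 replicate 3 were the exceptions. Among the ISG15 conjugation enzymes, Ube2l6 fell (-0.36) and Uba7 did not pass. Of the brakes, Pias1 rose (log2 fold change 0.33, 8 libraries) and Socs1 and Socs3 did not pass. Without day 4 replicate 4 or day 14 replicate 1 the call of Pias1 was lost (adjusted p = 0.0541 and 0.0598), and without day 4 replicate 2 or day 14 replicate 3 Socs3 fell (adjusted p = 0.0333 and 0.015).

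Among 43 tested interferon-inducible genes that are not members, 21 fell, 2 rose and 20 did not pass, with a median log2 fold change of -0.39. The largest drops were those of Ly6a (Sca-1, -1.78), Ms4a4c (-1.40), Helz2 (-1.15), Slfn1 (-1.06) and Ifi27l2a (-0.97). Ly6e, the most abundant of those called, went from 1215 ± 111 (SD, n = 4) to 795 ± 62.8 CPM (SD, n = 5). The genes that rose were Cxcl10, a chemokine for T cells, and Mndal, another PYHIN gene. The libraries held 46.3, 51.9, 50.9 and 42.1 CPM of Cxcl10 at day 4 and 103, 95.2, 119.5, 60.5 and 79.2 CPM at day 14. For Mndal, the values were 94.2, 112, 112 and 98.9 CPM at day 4 and 168, 182, 129, 155 and 121 CPM at day 14. Each was higher in all day 14 libraries than in any of day 4, by 1.92-fold and 1.45-fold (adjusted p = 0.0012 and 0.00588). Oas1g, a close relative of Oas1a that could share reads with it, fell by 0.77 on the log2 scale.

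Markers of several cell types also differed between the days. Of the monocyte markers, Ly6c2 (a mean of 44.3 CPM at day 4 and 10.2 CPM at day 14) and Plac8 (a mean of 152 CPM at day 4 and 68.2 CPM at day 14) fell. Ccr2 rose, in a fit of 8 libraries without day 14 replicate 5. Of 6 fibroblast markers, 4 fell, and their sum ran from 9755 to 19390 CPM at day 4 and from 5052 to 8415 CPM at day 14. Of 7 markers of conventional dendritic cells 5 rose, with a sum of 122.9 to 186.2 CPM at day 4 and 268.5 to 336.9 CPM at day 14 (without Xcr1 in day 14 replicate 5). Macrophage genes were mixed: Emr1 and Ptprc rose, Cd68, Fcgr1, Itgam and Mertk fell, and Csf1r and Lyz2 did not pass. Markers of plasmacytoid dendritic cells, known as strong interferon producers, summed to 2.5 to 3.64 CPM at day 4 and 4.41 to 6.56 CPM at day 14 (without Ccr9 in day 14 replicate 5), and 1 of the 4 tested, Siglech, rose (a mean of 0.648 CPM at day 4 and 2.98 CPM at day 14). Of other cell types, Igj (plasma cells, 45.3-fold), Prg2 (eosinophils, 2.95-fold) and Cd207 and Epcam (Langerhans cells, 2.50-fold and 3.07-fold) rose. Krt14 and Krt5 (keratinocytes, 5.45-fold and 4.76-fold) rose as well. Each of these genes had a mean of at most 13.9 CPM at day 14, and Epcam and Krt5 overlapped between the days. Other genes of the same lists did not pass or were too low to test. The B cell markers Cd79a and Ms4a1 had means of 0.465 and 0.221 CPM at day 4 and 0.205 and 0.114 CPM at day 14. The eosinophil marker Epx reached at most 0.0627 CPM in any library. Krt10 did not pass (adjusted p = 0.154, edgeR's quasi-likelihood test) and Krt1 was not tested. The part of these cell types in the levels of the members was not tested.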

How the data were processed

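Trizol-extracted RNA of the sorted cells was made into libraries with an Illumina TruSeq kit (v2), per the labels' protocols. Strand is lost with this kit, and overlapping or antisense genes share reads. The submitters' processing notes name the build mm10 and the tools Partek 6.6, SAMtools 1.4, HISAT2 2.1.0, CASAVA 1.8 and DESeq2; the counting step and annotation are not given in the sources used here. The estimated counts deposited by the authors were not whole in a mean of 17.2% of values per library and were rounded before testing. The authors' normalized table was not used.

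R 4.3.3 with edgeR 4.0.16 (TMM, filterByExpr, robust glmQLFit, two-sided glmQLFTest) gave the tests, adjusted by Benjamini-Hochberg over 13344 genes with a threshold of 0.05. Genes from Aplp2 onward on chromosome 9, on X, Y and the mitochondrial genome, or without a position, were fitted without day 14 replicate 5 and adjusted together with the rest. SEs come from the F statistic. The procedure was also run on simulated counts with known changes. These had the same dispersion for every gene, so they do not cover the uneven spread between libraries seen here. RefSeq on GRCm38.p6 gave positions and promoters. Positions were found for 17103 genes by symbol and 1097 by a synonym, and 103 had no match. Exon lengths were the bases covered by any exon of a gene in the GENCODE annotation of the same build.

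The members and the other gene lists were chosen with earlier results of these data known. In each role group, members that passed and the most abundant one have their values in the text. Ifit1, Rsad2 and Isg15, which did not pass, have theirs as well, outside that rule. Pathway genes that passed and the most abundant of a list may be named. S100a9, Cxcr2 and Slfn4 were named after their values were seen. Some genes of the pathway lists are not reported here by name. Alternatives covered scaling (RLE, upper quartile, total counts), the test (DESeq2 1.42.0 and limma-voom of limma 3.58.1), other low-count filters, non-robust dispersion, library size as a covariate, all genes in 1 fit, each library left out, and the 6 shallowest libraries alone.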

Additional observations from a re-analysis of the deposited data

Results flagged for a closer look

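In 8 of 78 gene and day groups, 1 library lay far from the others by Dixon's test. Chance flags about 1 in 20 groups. These groups share the same 9 libraries and are not independent, so that rate cannot judge the number flagged. Day 14 replicate 3 was the high value in 4 of the 8. It held 323.7 CPM of Rsad2 against 136.7 in the next library, 22.7 of Isg20 against 10.6, 66.7 of Isg15 against 29.0 and 30.9 of Ifi35 against 25.1. Day 4 replicate 3 was high for Rtp4 (99.4 CPM against 81.7) and Parp12 (127 against 110.8). Samd9l was low in day 4 replicate 4 (151 CPM against 190.5), and Eif2ak2 in day 14 replicate 5 (61.2 against 73.6).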

How the results depend on the processing

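The median log2 fold change of the 39 members stayed below 0 in all 20 alternatives, from -0.48 to -0.36, and between 16 and 24 members fell. Of the 25 members that passed, 17 passed in every alternative. With a library left out, between 20 and 24 members fell and between 1 and 4 rose, with 1 rising without day 4 replicate 4, 2 without day 4 replicate 3 and 2 without day 14 replicate 1. In the 6 shallowest libraries, 16 members fell and 1 rose, 2 other pathway genes were higher and 15 lower, and over all genes 1030 were higher and 1045 lower; fewer samples entered this fit. Library size as a covariate ended the calls of Ifit2, Ifit3, Samd9l and Parp14; no filter and the fit of all genes in 1 ended those of Ifit3 and Samd9l; the 6 libraries ended those of these 4 and of Ifi203, Usp18, Trim25 and Ifi35. Isg15 passed with DESeq2 and limma-voom. Signs turned for 5 members that did not pass. Cmpk2 was at 0.019 with upper-quartile scaling, 0.024 with library size as a covariate and 0.006 in the 6 libraries, and ran from -0.299 to 0.097 with a library left out. Ddx60 was at 0.004 with the covariate. Mx1 was at 0.168 with the covariate and 0.147 in the 6 libraries, and from -0.205 to 0.109 with a library left out. Oas2 was at 0.030 in the 6 libraries. Rsad2 was at -0.051 with limma-voom, -0.092 with the covariate and -0.068 in the 6 libraries, and from -0.349 to 0.185 with a library left out. The cause was not tested. No paired analysis was possible because the labels give no replicate numbers shared between the days.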
